A study of Mus musculus with 6 samples.

Results

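The genes described here are Epcam and 8 genes of the tight junction: the claudin genes Cldn1, Cldn3, Cldn4, Cldn7 and Cldn8, the occludin gene Ocln, the ZO-1 gene Tjp1 and the JAM-A gene F11r. They were taken by name, and all 9 had a row among the 47643 genes of each count file. The libraries came from tumor cells sorted as CD45-EPCAM+ (the study's methods add that CD31+ and PDGFRα+ cells were left out) from 6 breast tumors of MMTV-PyMT mice, an FVB/N model in which a mammary tumor virus promoter drives the polyoma middle T antigen in the mammary epithelium. Every one of the 6 tumors had been exposed to the anti-VEGF-A antibody B20-4.1.1, given at 5 mg/kg in 2 injections per week for 6 weeks from 7 weeks of age on. The labels give no further class for a tumor, so the study's low-hypoxia (LH) and high-hypoxia (HH) tumors could not be compared, and untreated tumors were not analysed here. The labels give the tumors as separate samples with different identifiers and do not say more about their origin, so any p-value measures the spread between these 6 samples.

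Tight junctions seal the space between neighboring epithelial cells. Claudins are the membrane proteins that form the seal or, in the case of claudin-2, a pore for cations and water. Occludin and JAM-A are further membrane proteins of the junction, and ZO-1 is the scaffold under the membrane that ties them to actin. EpCAM is an adhesion protein of epithelial cells that binds claudin-7 and protects it from breakdown. In the mammary gland, low expression of claudin-3, claudin-4 and claudin-7 defines the claudin-low class of breast tumors. Because the cells were sorted on EpCAM protein, cells without it were removed before RNA was made, and the levels describe EpCAM+ cells and not whole tumors. A lower level in such bulk RNA can come from fewer cells that express a gene or from less RNA per cell, and these cannot be told apart.

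Reads on genes numbered 2509482 (tumor 2) to 5893246 (tumor 1) per tumor, so the floor of 3 counts lay at 0.509 to 1.20 CPM (counts scaled to the total of the library). The share of reads on no gene was lowest in tumor 1 (16.1%) and highest in tumor 2 (41.4%). The part of depth or of this share in the levels of tumor 2 was not tested. The luminal markers Krt8, Krt18, Krt19 and Cdh1 summed to 2930 to 3455 CPM, whereas Ptprc, the gene of CD45, ranged from 0.797 to 3.39 CPM. All 5 endothelial markers together reached 1.59 to 3.88 CPM and the 6 fibroblast markers 14.8 to 21.6 CPM. The 12 immune markers summed to 70.1 to 311 CPM and the 5 erythroid markers to 5.66 to 864 CPM, both highest in tumor 3, and the 8 basal markers to 172 to 536 CPM, highest in tumor 5. The basal sum in tumor 5 was mostly Krt14 (359 CPM) and Krt17 (127 CPM), whereas Krt5 and Trp63 were highest in tumor 4 and Mylk in tumor 1. The 3 adipocyte markers did not exceed 0.727 CPM together. The library of tumor 1 stood apart. Its median correlation with the other libraries, across 8873 genes, was 0.788, against 0.905 to 0.939 for the others. Results that rest on tumor 1 are therefore given with and without it. Identifiers began with QAF for tumors 1, 4, 5 and 6 and with QSD for tumors 2 and 3, and what the prefix stands for is not given.

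By its median, Epcam was the most abundant of the 9 genes. It stood at 652, 611, 810, 625, 839 and 972 CPM in tumors 1 to 6, a median of 731 CPM and a 1.59-fold range. No tumor stood far from the rest. The gene lies on chromosome 17 (chr17:87635979-87651129, plus strand, 10 exons, GRCm38). On this scale tumors 5 and 6 held the highest levels and tumor 2 the lowest.

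**Figure D1:**
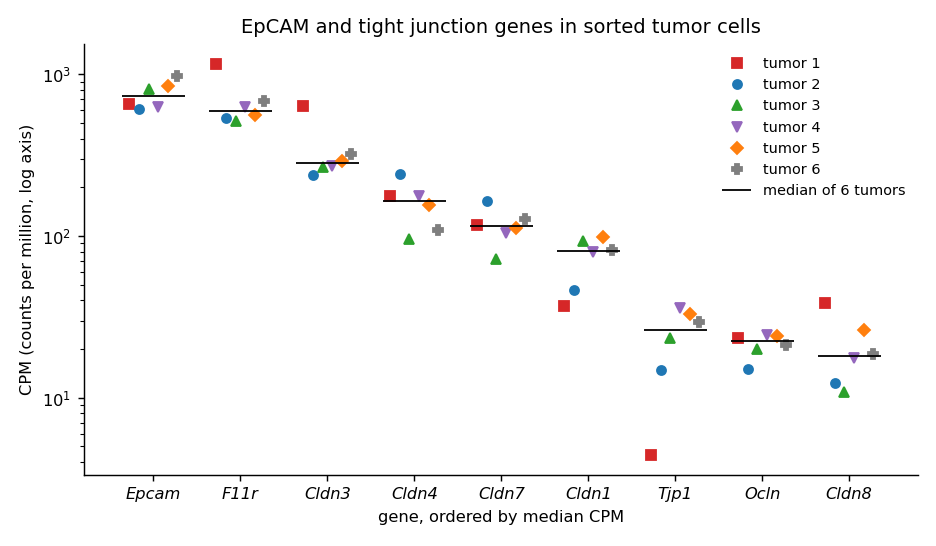
Level of each of the 9 genes in each tumor. The y axis is CPM on a log scale, each symbol is 1 tumor and each bar is the median of the 6. Tumor 1 (red squares) lay above the others for F11r, Cldn3 and Cldn8 and below them for Cldn1 and Tjp1.

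To set genes side by side, levels were also divided by the exon length of each gene (TPM). On this scale the medians were 847 TPM for Epcam, 572 for F11r, 572 for Cldn3, 231 for Cldn4, 149 for Cldn7, 42.5 for Cldn1, 19.6 for Cldn8, 13.3 for Ocln and 8.38 for Tjp1. Among neighbors in this order, Cldn3 was above Cldn4 and Cldn7 above Cldn1 in 6 of 6 tumors with no overlap of their ranges, and Ocln was above Tjp1 in 6 of 6 tumors although their ranges overlapped. Epcam was above F11r, Cldn4 above Cldn7, Cldn1 above Cldn8 and Cldn8 above Ocln in 5 of 6 tumors. F11r and Cldn3 held either order, 3 tumors each way, and differed on average by -0.04 on the log2 scale with an SD of 0.13. The library method reads mainly the 3′ end of a transcript, for which dividing by length may not apply. Without it (CPM), F11r was above Cldn3 in 6 of 6 tumors, and Tjp1 moved from the last place to the place above Ocln, which it held in 4 of 6 tumors.

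Cldn3, Cldn4 and Cldn7, the claudins whose low expression marks the claudin-low class, had medians of 281, 165 and 115 CPM. Cldn3 stood at 638 CPM in tumor 1 and at 238, 265, 272, 289 and 319 CPM in tumors 2 to 6. The tumor 1 value was the only one outside a narrow band, and without it the range was 1.34-fold. Cldn4 measured 176, 241, 95.8, 177, 155 and 109 CPM in tumors 1 to 6, and Cldn7 117, 164, 71.8, 104, 113 and 128 CPM. Both were highest in tumor 2 and lowest in tumor 3, and their ranges of 2.51-fold and 2.28-fold did not rest on tumor 1. Tumors 2 and 3 are the pair with the prefix QSD. Among the 4 QAF tumors Cldn4 ranged from 109 to 177 CPM and Cldn7 from 104 to 128 CPM. Tumor 3 also had the highest sum of immune markers (311 CPM, against 70.1 to 199 CPM in the rest, with Cd3g and Cd79a at 0 in all tumors). Its largest part was Lyz2 (148 CPM, against 3.19 to 24.6 CPM elsewhere), whereas Cd14 was highest in tumor 5, at 146 CPM. Ptprc was 3.39 CPM in tumor 3 and 3.05 CPM in tumor 1. The erythroid sum was also highest in tumor 3 (864 CPM, against 5.66 to 69.4 CPM). The part of these markers in the Cldn4 and Cldn7 levels was not tested. Cldn3 (chr5:134986214-134987472, plus strand) and Cldn4 (chr5:134945119-134946934, minus strand) are single-exon genes close to each other on chromosome 5, and Cldn7 (chr11:69964779-69967885, plus strand) has 5 exons. Cldn3 overlaps the antisense gene Wbscr25 by 40 bases, and reads of these bases could belong to either gene if counting ignored strand, which is not stated.

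Within a tumor, where the scaling between libraries plays no part, the ratio of Cldn3 to Cldn4 counts, not divided by length, was 3.63 in tumor 1 and 2.77, 1.54, 1.87 and 2.94 in tumors 3 to 6. In tumor 2 the counts were 597 and 604, and the counting interval of the log2 ratio, -0.18 to 0.15, included 0. Tumor 2 thus had the lowest Cldn3 to Cldn4 ratio, and per length Cldn3 was still the higher of the pair there, at 498 against 349 TPM. The ratio of Cldn7 to Epcam counts, whose proteins bind each other, was 0.179, 0.268, 0.0886, 0.167, 0.134 and 0.132 in tumors 1 to 6. The lowest and highest had log2 counting intervals that did not overlap, -3.67 to -3.32 in tumor 3 and -2.06 to -1.74 in tumor 2. These intervals take each read as 1 molecule. Between tumors 5 and 6 the intervals overlapped almost completely.

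The sequence before the transcription start is shown for the 5 genes of the 9 with the highest median TPM (Epcam, F11r, Cldn3, Cldn4 and Cldn7). Capitals mark the E-box CACCTG or its reverse complement CAGGTG, the element bound by the repressors of the Snail and ZEB families. Each line gives the 250 bases before the start in RefSeq (GRCm38.p6), read 5′ to 3′ on the strand of the gene, and for Cldn7, which has starts at 2 positions, the window of the first is shown because that of the second lies in annotated exons. A match describes these letters only.
Epcam, chr17:87635729-87635978, plus strand: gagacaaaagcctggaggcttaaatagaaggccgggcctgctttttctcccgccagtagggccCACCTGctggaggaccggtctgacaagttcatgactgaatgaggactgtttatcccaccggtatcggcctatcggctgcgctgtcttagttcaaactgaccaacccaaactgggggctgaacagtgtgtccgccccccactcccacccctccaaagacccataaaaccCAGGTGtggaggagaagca
Cldn3, chr5:134985964-134986213, plus strand: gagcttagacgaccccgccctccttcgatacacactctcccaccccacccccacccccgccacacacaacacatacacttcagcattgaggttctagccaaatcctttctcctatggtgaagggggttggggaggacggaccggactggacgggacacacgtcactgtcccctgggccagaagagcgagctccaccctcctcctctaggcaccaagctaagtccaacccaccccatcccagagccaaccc
Cldn4, chr5:134946935-134947184, minus strand: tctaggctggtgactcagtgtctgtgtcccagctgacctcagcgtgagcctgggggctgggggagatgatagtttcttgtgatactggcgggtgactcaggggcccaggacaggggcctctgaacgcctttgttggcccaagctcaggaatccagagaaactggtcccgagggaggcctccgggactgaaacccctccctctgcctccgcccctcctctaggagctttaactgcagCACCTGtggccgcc
Cldn7, chr11:69964529-69964778, plus strand: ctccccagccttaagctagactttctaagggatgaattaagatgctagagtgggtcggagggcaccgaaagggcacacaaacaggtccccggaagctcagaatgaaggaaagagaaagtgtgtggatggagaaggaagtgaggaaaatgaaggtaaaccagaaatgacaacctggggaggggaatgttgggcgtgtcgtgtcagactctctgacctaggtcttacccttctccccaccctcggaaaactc
F11r, chr1:171437311-171437560, plus strand: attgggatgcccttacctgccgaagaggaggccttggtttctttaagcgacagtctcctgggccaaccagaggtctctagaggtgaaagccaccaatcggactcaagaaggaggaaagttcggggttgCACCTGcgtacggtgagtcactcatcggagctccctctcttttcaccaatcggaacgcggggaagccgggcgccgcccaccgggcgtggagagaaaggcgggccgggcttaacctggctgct

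Of the 8 genes with a window in the table (Cldn8 has no entry there), 5 held the E-box, against 5252 of 27025 genes with a promoter window (19.4%). A gene counted if the window of any of its starts held the E-box, here and over all genes. Cldn7 and Ocln counted only through their second start. That window lies wholly (Cldn7) or mostly (Ocln) inside the annotated gene. The difference from the share over all genes was not tested. The window of Epcam held 2, with first bases at -187 and -19 from the start, that of Cldn4 held 1 at -14, the second start of Cldn7 held 2 at -97 and -57, and F11r held 1 at -122. Ocln held 2, both before its second start. The windows of Cldn1, Cldn3 and Tjp1 held none. The motif AACNNGTT, the core element of the grainyhead-like factors, was searched in the same windows, where it reads the same on either strand, and was in none of the 8 genes, against 4.11% of all genes with a window. The transcripts of the factors themselves were measured too. Of the repressors, Snai1 reached 3.05 to 6.39 CPM, Snai2 0.797 to 6.17 CPM and Zeb1 0.398 to 2.34 CPM, and all 6 of the list (Snai1, Snai2, Zeb1, Zeb2, Twist1 and Twist2) together summed to 4.38 to 13.2 CPM. Only Snai1 was above 3 counts in every tumor. By contrast, the 11 epithelial regulators summed to 1051 to 1724 CPM, led by Ehf (139 to 778 CPM), Esrp1 (185 to 260 CPM), an epithelial splicing factor, and Elf5 (119 to 202 CPM), a factor of luminal progenitors.

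Of the remaining claudin genes, Cldn1 (chr16:26356642-26371841, minus strand, 4 exons) stood at 37.0, 46.6, 93.1, 79.6, 98.4 and 82.2 CPM in tumors 1 to 6. Tumors 1 and 2 lay apart from the other 4, below all of them. Cldn8 (chr16:88560828-88563183, minus strand, a single exon) had the lowest median of the 5 claudins, at 38.7, 12.4, 10.9, 17.7, 26.4 and 18.5 CPM, with 31 counts behind the value in tumor 2. It was highest in tumor 1 and lowest in the QSD tumors 2 and 3. The rest of the family was searched as a fixed list of 19 further claudin genes, of which 18 had a row. Only Cldn2, Cldn10 and Cldn12 were above 3 counts in every tumor, and 12 of the 18 were at 3 counts or fewer in every tumor. These 12 include Cldn5, the endothelial claudin, which was at 0 in all 6 libraries, a count that allows up to 0.509 to 1.20 CPM. Cldn2, which forms the cation pore, stood at 533, 143, 217, 171, 76.3 and 176 CPM in tumors 1 to 6. Its median per length, 133 TPM, lay below the 231 TPM of Cldn4 and the 149 TPM of Cldn7. Without division by length the order was the reverse, with a median of 173 CPM for Cldn2, 165 CPM for Cldn4 and 115 CPM for Cldn7. Tumor 1 was again highest, and without it the range of Cldn2 was 76.3 to 217 CPM. Cldn10 ranged from 8.37 to 39.8 CPM and Cldn12 from 10.4 to 19.9 CPM.

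Summed over all claudin genes, counts gave 1592 CPM in tumor 1 and between 795 and 873 CPM in the other 5 tumors. The sum was thus nearly even outside tumor 1, while the share of each claudin in it was not. Shares are of counts, not divided by length. Cldn3 made up 27.5% (Wilson 95% interval 25.7 to 29.4%) of claudin counts in tumor 2 and 40.1% (39.1 to 41.1%) in tumor 1, with a median of 34.3%. The share of Cldn4 ran from 11.04% (10.4 to 11.7%) in tumor 1 to 27.8% (26.0 to 29.7%) in tumor 2. Cldn2 ran from 9.59% (8.71 to 10.5%) in tumor 5 to 33.5% (32.6 to 34.5%) in tumor 1. Cldn7 held 7.33 to 18.9%, Cldn1 2.32 to 12.4% and Cldn8 1.33 to 3.31%. Cldn1, Cldn2, Cldn3, Cldn4 and Cldn7 accounted for 90.5 to 96.2% of claudin counts in each tumor. Cldn3 was the largest share in 5 of 6 tumors, and in tumor 2 its interval overlapped that of Cldn4. These intervals cover counting error only and take each read as 1 molecule.

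**Figure D2:**
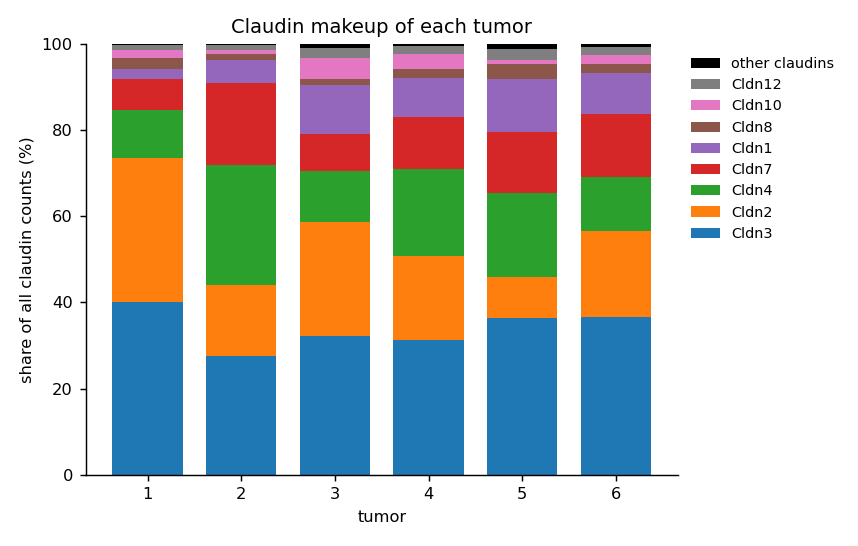
Claudin makeup of each tumor. Each bar is 1 tumor and sums to 100% of the counts on all claudin genes. Cldn3 (blue) held 27.5 to 40.1%, and by counts the share of Cldn2 (orange) was larger than that of Cldn4 (green) in tumors 1, 3 and 6.

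The other membrane proteins of the junction differed in spread. F11r, on chromosome 1 (chr1:171437535-171464603, plus strand, 9 exons), stood at 1163 CPM in tumor 1 and at 533, 517, 624, 559 and 683 CPM in tumors 2 to 6. As for Cldn3, tumor 1 alone was high, and the other 5 lay within 1.32-fold. Ocln, on chromosome 13 (chr13:100496507-100552718, minus strand, 10 exons), was the evenest of the low genes, at 23.2, 15.1, 19.9, 24.5, 24.2 and 21.3 CPM, with 38 to 137 counts per tumor. Among 11 further membrane genes, 9 were above 3 counts in every tumor and their sum stayed within 540 to 594 CPM. Lsr, the lipolysis-stimulated receptor that marks junctions where 3 cells meet, led with 142 to 272 CPM. It was followed by Marveld3, an occludin relative, with 97.9 to 179 CPM and by Cxadr, the coxsackievirus and adenovirus receptor, with 62.1 to 138 CPM.

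Tjp1 had the widest range of the 9 genes, but only with tumor 1 among them. It stood at 4.41, 14.7, 23.3, 35.7, 33.1 and 29.3 CPM in tumors 1 to 6, from 26 counts in tumor 1 to 168 in tumor 4. The range was 8.10-fold with tumor 1 and 2.42-fold without it, which is narrower than the 2.51-fold range of Cldn4. On the TMM scale (counts scaled by the trimmed mean of M values) the range of Tjp1 without tumor 1 was 2.30-fold, below those of Cldn4 (2.76-fold), Cldn7 and Cldn8. The ratio of Ocln to Tjp1 counts was 5.27 in tumor 1, where the counting interval of its log2 value was 1.78 to 3.06, and 0.685 to 1.03 in the other 5 tumors. The gene lies on chromosome 7 (chr7:65296165-65527781, minus strand, 31 exons). Of 22 further genes of the plaque under the junction and of the polarity complexes, all were above 3 counts in every tumor, and their sum was lowest in tumor 1 (1534 CPM, against 1745 to 2123 CPM elsewhere). Cgnl1, which encodes paracingulin, led with 332 to 599.7 CPM, followed by the polarity gene Pard3 with 174 to 297 CPM.

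Tumor 1 was the highest tumor for 3 of the 9 genes and the lowest for 2 on the TMM scale. Over all genes tested 32.5% were highest and 31.0% lowest in it, so such extremes were not particular to the 9 genes. The difference between tumor 1 and the median of the other tumors was 1.22 (log2) for Cldn3, 1.08 for Cldn8 and 1.03 for F11r. It was 0.17 for Cldn4, 0.04 for Cldn7, -0.05 for Ocln, -0.27 for Epcam, -1.27 for Cldn1 and -2.65 for Tjp1. Across 12068 genes this difference moved with the base composition of the last 300 transcript bases, with a Spearman correlation across genes of 0.417 with GC content and -0.20 with exon length, and genes are not independent replicates. The median difference rose from -0.77 for genes under 30% GC to 0.70 for genes of 55 to 60% GC. Tjp1 (28.0% GC) and Cldn1 (30%) lay below the median of their GC class and Cldn3 (56.0%) above it, on the side to which that class leaned. Cldn8 (27.3%) and F11r (43.0%) lay far above the median of theirs. Cldn7 (55.7%), in the class of Cldn3, lay at 0.04, below the class median of 0.70. Cldn4 (52.3%) lay at 0.17, below 0.51. Ocln (33.0%) lay at -0.05, above -0.43, and Epcam (36.7%) at -0.27, near -0.23. The part of base composition in the tumor 1 levels of these genes was not tested.

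**Figure D3:**
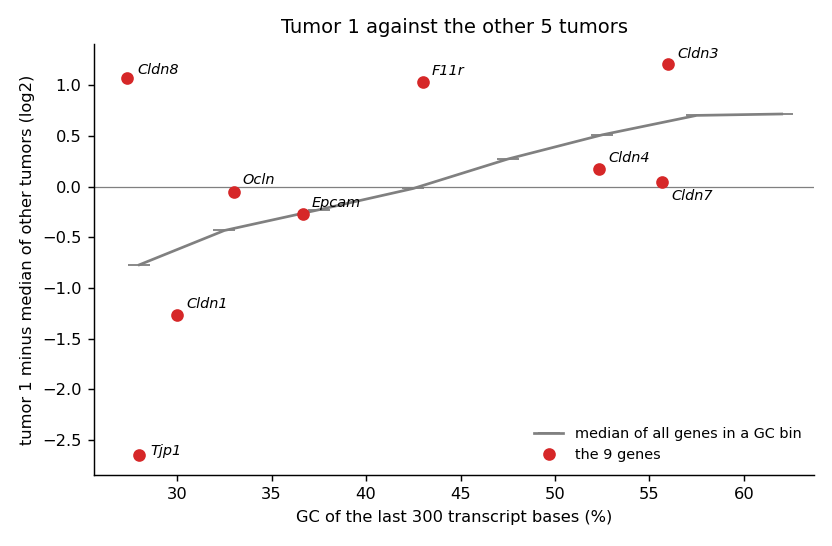
Tumor 1 against the median of the other 5 tumors, on the log2 scale, plotted by the GC content of the last 300 transcript bases. Red points are the 9 genes and the grey line joins the medians of all genes per GC class, with the open classes at either end drawn beside their neighbors. Tjp1 lay lowest at -2.65 and Cldn3 highest at 1.22.

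To ask which genes moved together, each gene was centered on its own mean of log2(TMM-scaled CPM + 1), and the root mean square difference between the centered values of 2 genes over the 6 tumors was taken as their unlikeness. These values describe the 6 tumors and have no test. The most alike pair of the 36 was Cldn3 and F11r, at 0.12, and they were also the closest pair without tumor 1, at 0.10. Epcam and Ocln followed at 0.30 and Cldn4 and Cldn7 at 0.31, but at ranks 9 and 14 without tumor 1 (0.29 and 0.33). The least alike pair was Cldn3 and Tjp1 at 1.35, which became 0.35 without tumor 1. The neighbors on chromosome 5, Cldn3 and Cldn4, were not a close pair, at 0.63.

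**Figure D4:**
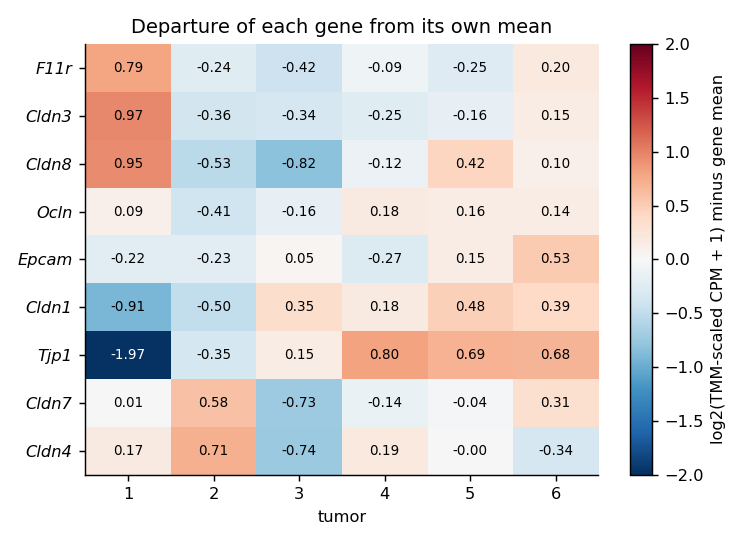
Departure of each gene from its own mean in each tumor, as log2(TMM-scaled CPM + 1), with genes of like pattern placed together. Cldn3, F11r and Cldn8 were raised in tumor 1 (0.79 to 0.97), Tjp1 and Cldn1 were lowered there (-1.97 and -0.91), and Cldn4 and Cldn7 ran from 0.71 and 0.58 in tumor 2 to -0.74 and -0.73 in tumor 3.

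Outside the junction, 3765 other genes that averaged 50 CPM or more were ranked by the same measure. The genes closest to Epcam were Serinc5, Srek1ip1 and Cd24a, an epithelial surface glycoprotein, at 0.11 to 0.12, against a median of 0.48 over all genes. Closest to Cldn3 were Smim7, Ubl5 and Nop53 (0.04 to 0.08), closest to Cldn4 were Ppp1r9a, Pvr and Skil (0.11 to 0.20), and closest to Cldn7 were Nrd1, Rarg and Zfp36 (0.11 to 0.20). With tumor 1 left out, 8 of these 12 genes fell to ranks 24 to 48 of 3765. The 12 had been chosen as the nearest with all tumors included, so leaving out any tumor can lower their ranks. No other tumor was left out here, so whether the fall is particular to tumor 1 was not tested. The differences themselves changed little. Without tumor 1 they were 0.11 to 0.12 for Epcam and 0.05 to 0.08 for Cldn3. They were 0.13 to 0.19 for Cldn4 and 0.12 to 0.21 for Cldn7. For Epcam the median over all genes fell to 0.37. All those named for Epcam fell, Serinc5 to rank 27, Srek1ip1 to 34 and Cd24a to 48. So did Ubl5 (24) and Nop53 (39) for Cldn3, Skil (25) for Cldn4, and Rarg (31) and Zfp36 (45) for Cldn7. The other 4 stayed near the top, with Ppp1r9a and Pvr at ranks 2 and 3 for Cldn4, Smim7 at rank 3 for Cldn3 and Nrd1 at rank 4 for Cldn7. Among the 15 partners of EpCAM in the list (among them the protease inhibitors and proteases that act on it, and tetraspanins), all were above 3 counts in every tumor, led by Cd9 with 159 to 429.9 CPM, Adam17 with 108 to 180.04 CPM and Cd44 with 77.2 to 251 CPM.

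Whether a gene differed between the 6 tumors by more than genes of its abundance do was asked with edgeR, as the goodness of fit of each gene to the dispersion trend. Of 12088 genes tested, 357 were called (2.95%) at an adjusted p (Benjamini-Hochberg) under 0.05 and 1290 had an unadjusted p under 0.05. Of the 9 genes, 0 were called. Tjp1 came nearest, with an unadjusted p of 0.0068 and an adjusted p of 0.139 in edgeR's test, and its biological coefficient of variation of 52.4% was above the 36.4% that the trend gives at its level. Without tumor 1 its edgeR adjusted p was 1.00. For the other 8 genes the coefficient was 27.7% (Ocln) to 41.2% (Cldn8). This coefficient is drawn toward the trend by edgeR. Computed directly from CPM, the SD over the mean was 16.5% for Ocln, 49.8% for Cldn8 and 51.1% for Tjp1. The median coefficient of the 9 genes, 34.6%, was near the 35.4% of all genes tested, a nearness that the pull toward the trend favors. Their median ratio of highest to lowest tumor was 2.52, near the 2.46 of all genes. Without tumor 1 the ratio was 1.42 for Cldn3, lower than in all but 15.4% of genes tested, and 2.76 for Cldn4, higher than in 79.3% of them. Cldn2 had an edgeR adjusted p of 0.136. In the lists of other junction genes, EpCAM partners, regulators and repressors, with 2 to 22 genes tested per list, 0 genes were called. At the 2.95% of all genes, few calls would fall in lists of this size. Of the marker lists 8 genes were called, namely Krt17, Lyz2, C1qa, C1qb, Col1a2, Hbb-bs, Hbb-bt and Hba-a1. These were 1 of 6 basal, 3 of 6 immune, 1 of 4 fibroblast and 3 of 3 erythroid markers tested, with 0 of 4 luminal ones.

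The study asked what goes with hypoxia in treated tumors. As the labels give no class, its 3-gene score, the mean TPM of Vegfa, Slc2a1 and Car9, was used as a continuous measure. The score was 48.5, 37.2, 51.4, 76.6, 94.4 and 47.3 TPM in tumors 1 to 6. In edgeR's quasi-likelihood test of the slope on log2 of the score, 0 of 12088 genes were called (0%), 512 had an unadjusted p under 0.05 and the smallest adjusted p was 0.445, while DESeq2 called 18. Of the 9 genes, 0 were called by either tool. The slopes per doubling of the score, on the log2 scale, were 0.91 ± 0.63 (SE, n = 6) for Tjp1, 0.58 ± 0.42 for Cldn1, 0.32 ± 0.33 for Ocln, 0.26 ± 0.54 for Cldn8 and 0.01 ± 0.38 for Epcam. They were -0.23 ± 0.40 for Cldn4, -0.27 ± 0.45 for F11r, -0.28 ± 0.49 for Cldn3 and -0.37 ± 0.37 for Cldn7. The edgeR adjusted p values lay between 0.954 and 0.998. An interval of 2 SE to either side of the slope included 0 for each of the 9 genes.

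Leaving out tumor 1 or tumor 2 moved several slopes. Without tumor 1, the slope was 0.64 for Tjp1, 0.61 for Cldn8, 0.01 for Cldn3 and -0.06 for F11r. Without tumor 2, it was 0.35 for Cldn4 and -0.06 for Cldn8, both of the other sign, -0.68 for Cldn3, -0.60 for F11r, -0.07 for Cldn7 and 0.14 for Ocln. Without tumor 5, it was -0.68 for Cldn7, 0.48 for Ocln, 0.03 for Cldn8 and -0.08 for F11r. With any 1 tumor left out, the edgeR adjusted p values of the 9 genes were 0.631 or higher. Among the 4 tumors with the prefix QAF it was 0.94 for Tjp1 and -0.87 for Cldn3, with edgeR adjusted p values of 0.907 for both, and the 2 QSD tumors are too few for a slope.

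**Figure D5:**
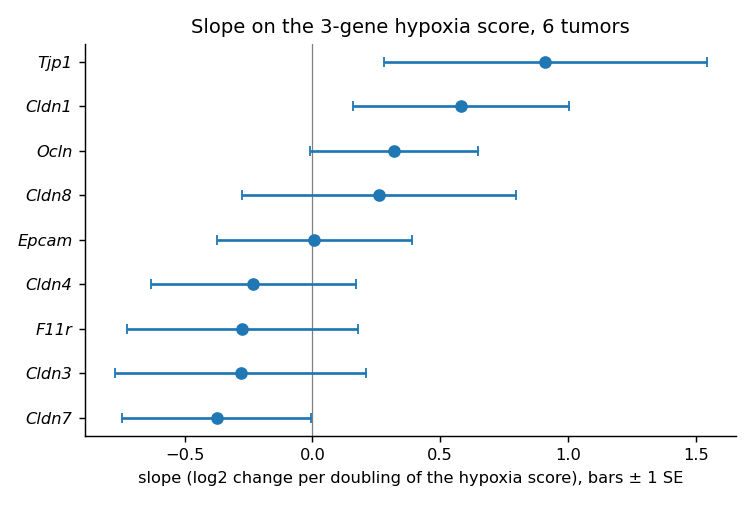
Slope of each of the 9 genes on the 3-gene hypoxia score, as log2 change per doubling of the score, over 6 tumors. Points are edgeR estimates and bars are 1 SE to either side. The slopes ran from -0.37 (Cldn7) to 0.91 (Tjp1), and 0 of the 9 passed the test.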

How the data were processed

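Sorted tumor cells were profiled with QuantSeq 3′ FWD libraries from 6 tumors, all of 1 group. Per the labels and the study's methods, the authors used bbduk for trimming, STAR 2.5 for alignment to GRCm38/mm10 and, on the Bluebee platform, HTSeq for counting. They deposited raw read counts per Ensembl gene. The kit is directional and carries molecular identifiers. Whether counting used strand or the identifiers, and the annotation release, are not given in the sources used here, so values of overlapping genes are uncertain. Intervals cover counting error only and take each read as 1 molecule. They are too narrow if copies of a molecule were counted. Reads on no gene (5 lines per file, from 16.1% of reads in tumor 1 to 41.4% in tumor 2) were left out.

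Symbols, lengths and positions came from GENCODE M21 (GRCm38), with a length for 47224 of 47643 identifiers. CPM used the total over all genes, and TPM union exon lengths. Shares have Wilson 95% intervals and ratios exact conditional ones. Tests ran in edgeR 4.0.16 (R 4.3.3) on TMM-scaled counts after filterByExpr (minimum count 10, minimum total 15, group size 3), over all 12088 genes with Benjamini-Hochberg adjustment at 0.05: the goodness of fit to the trended dispersion, and glmQLFTest of the slope on log2 score. DESeq2 1.42.0 was the other tool. Both tests were tested on simulated data. Python 3.11.15 did the rest.

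The members and lists were chosen with earlier results of these data known. The text names all 9 genes, the genes of the score, of each other list the 3 highest by mean CPM and any called, and for Epcam, Cldn3, Cldn4 and Cldn7 the 3 genes nearest in pattern. Some items that this rule names are not reported here. Cldn5, the repressors beyond the first 3, the single markers and the genes named under other observations were named after their values were seen. Alternatives were other scalings, filters, lengths and tools, the QAF tumors alone, the prefix as a term, and each tumor left out. For the slope they also included the score as mean CPM, and the 2 tumors with the score farthest from the median left out.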

Additional observations from a re-analysis of the deposited data

Results flagged for a closer look

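For 27 measures over the 6 tumors, the gap of the highest or lowest tumor to its nearest neighbor was divided by the range and set against Dixon's 95% critical value for 6 values. It was exceeded by 5 measures, where about 1 in 20 would exceed it by chance if the measures were independent. They are not, because levels, shares and ratios of the same genes recur among them, so this rate is only a rough guide. In 4 of them the tumor that stood apart was tumor 1, whose whole library stood apart. These were Cldn3, with 0.796 of its range between tumor 1 (638 CPM) and the next tumor (319 CPM), F11r with 0.744 (1163 against 683 CPM), Cldn2 with 0.693 (533 against 217 CPM), and the log2 ratio of Ocln to Tjp1 with 0.801 (2.40 against 0.04). The fifth was the sum of the erythroid markers, with 0.926, at 864 CPM in tumor 3 and 69.4 CPM in the next tumor. Cldn4 and Cldn7 were lowest in tumor 3.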

How the results depend on the processing

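Of 432 values recomputed under the alternatives, 425 counted as the same. For levels, shares and ratios this meant a shift of less than 1 SD over the tumors, and for counts of genes a factor of at most 1.5. Slopes and adjusted p values of single members had to keep their side of the threshold, whatever the sign of the slope. A slope that moved far or changed sign could thus count as the same. A median with 1 tumor left out can rarely shift by 1 SD over the same tumors. The 425 is therefore no measure of how steady the values were. Without the 10 most abundant genes of each library in the total, the median of Epcam was 881 and that of Ocln 26.7 CPM. The number of genes called as more variable than the trend, 357, became 219 in the 4 QAF tumors and 44 as DESeq2 dispersion outliers, and was 246 to 314 with 1 tumor left out. The number called for the slope, 0, became 10 without a filter, 18 with DESeq2 and 0 to 2 with 1 tumor left out (2 without tumor 1). The causes were not tested. None of the 9 genes was called in any of these settings. The lowest adjusted p of a member was 0.114 for the variation and 0.631 for the slope, both of Tjp1. Over 13 alternatives the slope changed sign in 5 for Epcam, 3 for Cldn8, 2 for Cldn3, 2 for Cldn4 and 1 for F11r, and in 0 for Cldn1, Cldn7, Ocln and Tjp1, although that of Cldn7 came to -0.07 without tumor 2. Larger moves came without the 2 tumors whose score lay farthest from the median, with slopes of -2.68 for Cldn4 and -2.22 for Cldn7. In that setting the slope was 1.38 for Cldn1, 1.36 for Cldn8 and 1.33 for Cldn3. With the prefix as a term it was -0.77 for Cldn3, -0.76 for F11r and -0.38 for Cldn8. The patterns and ranges without tumor 1 were added after seeing the data, and 4 of these 13 values moved by over 1.5 times. No paired analysis was possible because all 6 tumors belong to 1 group. The counts limit Tjp1, Ocln and Cldn8 most, with 26, 38 and 31 counts in the lowest library.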

Other observations

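Among the genes of the junction plaque and polarity complexes, several had the pattern of Tjp1, with a low value in tumor 1. They were chosen after their values were seen. Mpp5, a scaffold of the Crumbs polarity complex, stood at 22.6 CPM in tumor 1 and at 90.4 to 151 CPM in the other 5 tumors. Magi3, a membrane-associated scaffold, stood at 15.1 CPM in tumor 1 and at 58.0 to 103 CPM in the others. Prkci, the gene of an atypical protein kinase C, stood at 5.77 CPM in tumor 1 and at 16.7 to 61.7 CPM in the others. The last 300 transcript bases of these genes hold 34%, 28.3% and 35% GC. In edgeR's test of variation their adjusted p values were 0.122, 0.112 and 0.0524, so 0 of the 3 were called. Patj, another scaffold of the Crumbs complex, had its highest value in tumor 1, at 105 CPM against 54.1 to 80.5 CPM in the others. So did Prkcz, the gene of another atypical protein kinase C, at 18.7 CPM against 6.83 to 13.1 CPM. Pard3, Pard6a, Rab13 and Arhgef18 were highest in tumor 1 as well, so tumor 1 was not low across the whole list.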
